A study of Mus musculus with 2 samples.

Results

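The 37 genes described here encode enzymes that burn fatty acids and run the tricarboxylic acid (TCA) cycle, and they were followed in the mouse mammary gland. They were chosen by name, 19 for fatty acid oxidation and 18 for the TCA cycle, among the 21113 genes of the deposited tables, and all 37 had a row. RNA came from mammary glands taken in postnatal week 6 from C57BL/6 animals. There was 1 wild-type library and 1 library of genotype Mir212/132ILN/ILN, where both alleles of the miR-212 and miR-132 locus carry an IRES-LacZ-Neo (ILN) cassette. These microRNAs were not analysed here, so the genotype has no check from the targeted genes. Both groups shared strain, tissue and age, and the sex and number of animals behind each RNA were not given in the sources used here. With 1 library per genotype no test was possible and no difference could be set against a spread between replicates.

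Fatty acids enter mitochondria through the carnitine shuttle and are shortened there, 1 acetyl unit per round, by a dehydrogenase, a hydratase, a second dehydrogenase and a thiolase. The acetyl-CoA enters the TCA cycle at citrate synthase and is oxidised to carbon dioxide, and both routes hand their electrons to the respiratory chain. Peroxisomes hold a parallel oxidation route for very long and branched chains. In the mammary fat pad of a young mouse most of the tissue is adipose, and white adipocytes carry these enzymes beside the machinery of fat storage and release.

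Levels are the deposited FPKM-like values, which are scaled for gene length and library size. Fragments are the whole numbers behind them, and the wild-type library held 46133338 and the ILN/ILN library 42953129. A ratio below is ILN/ILN over wild type in fragments scaled by these totals, with a 95% exact interval in parentheses that covers counting error alone. A log2 ratio is the log2 of the ILN/ILN value plus 1 minus the log2 of the wild-type value plus 1, which understates the difference of low genes. Measured genes, 11556 in all, reached a value of 1 in at least 1 library. All 37 members were measured and were at 5 or more in both libraries. Each member had 1 isoform in the table and a value made directly from its fragments, whereas 7.81% of the measured genes had a value that was not made from fragments in both libraries.

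The tissue label was checked against cell markers. White adipocyte markers had values from 199 to 40797 in wild type, and 7 of 10 had a log2 ratio above 0 (median 0.12), with summed values of 87291 in wild type and 78557 in ILN/ILN. Of 7 measured luminal epithelial markers all 7 were at least 1.5-fold lower, and the whole list of 9 summed to 44.5 in wild type and 0.97 in ILN/ILN. The luminal genes Krt8 and Elf5 and the basal genes Krt5, Krt14 and Krt17 had 0 fragments in the ILN/ILN library, which allows up to 3 fragments, or 0.0698 per 1000000. All 12 B and T lymphocyte markers were at least 1.5-fold lower (241 and 57.6 summed), and so were 4 of 8 macrophage markers (1975 and 1289). Brown adipocyte markers summed to 1971 and 1914, and 3 of 6 measured ones had a log2 ratio above 0 (median -0.02). The brown fat uncoupling protein gene Ucp1, at 59.7 and 26.0, had the lowest log2 ratio of that list. Skeletal muscle markers summed to 52.3 and 63.5. Of 5 measured muscle markers 4 were lower in ILN/ILN (median log2 ratio -0.15), and the higher sum came from the myosin light chain gene Myl1, at 37.7 and 51.4. Basal epithelial markers summed to 65.2 and 49.7, of which Acta2 was 56.5 and 43.4. Their median log2 ratio, -0.25, covered 3 of 6 genes, as Krt5, Krt14 and Krt17 were below 1 in both libraries. Endothelial markers summed to 145 and 167 and fibroblast markers to 2408 and 2484, with median log2 ratios of 0.25 and 0.07. In such bulk tissue fewer cells of a type and less RNA per cell cannot be told apart, and the part of these cell types in the values of the members was not tested.

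The members were nearly all slightly higher in the ILN/ILN library, and none differed by much. Of 37, 34 had a log2 ratio above 0, against 52.3% of all measured genes, and this count was 33 with libraries scaled by the median or the upper quartile of genes. The median log2 ratio of the members was 0.22 and that of all measured genes was 0.02. The member ratios ran from -0.12 for Etfb to 0.53 for Acaa1b on that scale. No member was at least 1.5-fold higher, a threshold that 1.9% of measured genes passed, and none was 1.5-fold lower, as 5.39% were. At a lower threshold of 25% higher, 5 of 37 members (13.5%) passed, namely Acaa1b, Idh3a, Cpt1b, Sucla2 and Cs, against 8.52% of measured genes, and 0 passed the same fold in the other direction, against 13.3%. The shared sign was thus more frequent among the members than among all measured genes, and large differences were not.

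Summed over the 37 genes, the length-scaled values were 7142 in wild type and 7935 in ILN/ILN, which is 11.1% more. The members took 1.33% of wild-type fragments (1.32% to 1.33%, Wilson interval) and 1.502% of ILN/ILN fragments (1.499% to 1.506%). The 18 TCA cycle genes had a median log2 ratio of 0.24 and the 19 oxidation genes one of 0.18, and 17 of each set were above 0. The counting interval of the ratio lay wholly above 1 for 31 members and wholly below 1 for 3, while for all measured genes these shares were 33.1% and 29.2%. That rule is passed more easily by deeply counted genes, and the members had between 125 and 49510 fragments.

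**Figure D1:**
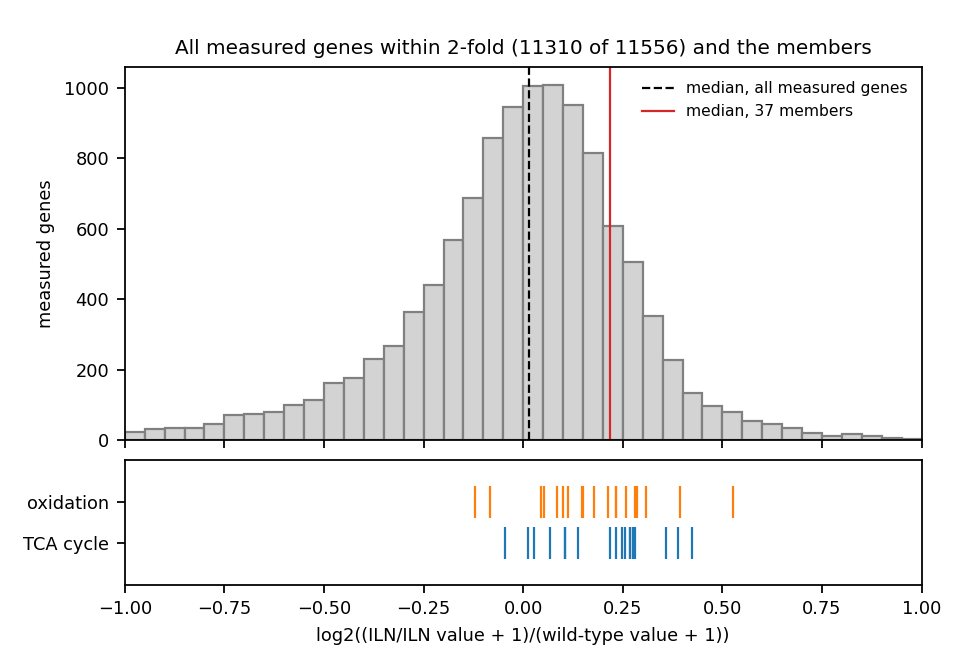
The upper panel is a histogram of the log2 ratio of (value + 1), ILN/ILN over wild type, for the 11310 of 11556 measured genes within 2-fold, and the lower panel marks each member with a bar, oxidation above and TCA cycle below. The members sit mostly to the right of 0, with their median at 0.22 (red line) against 0.02 for all measured genes (dashed line), and they lie within the body of the distribution.

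Most members were abundant messages. In the wild-type library 34 of 37 were in the top 25% of measured genes, and the same number were in the ILN/ILN library. The order of levels hardly differed between libraries, with a Spearman correlation of 0.996 over the 37 genes of these 2 libraries. Etfb led in the wild-type library at 601 and Sdhb in the ILN/ILN library at 577, followed in both by genes such as Idh3g, Hadh, Mdh1 and Mdh2. The lowest were Cpt1b, Acaa1b and Cpt1a, at 11.5, 13.8 and 17.1 in the wild-type library. The enzyme that opens the route, carnitine palmitoyltransferase 1, was thus encoded by 2 of the 3 genes of the set with the lowest values per length. The value of Cpt1b rested on a deposited length of only 223 bases, with 125 and 156 fragments.

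**Figure D2:**
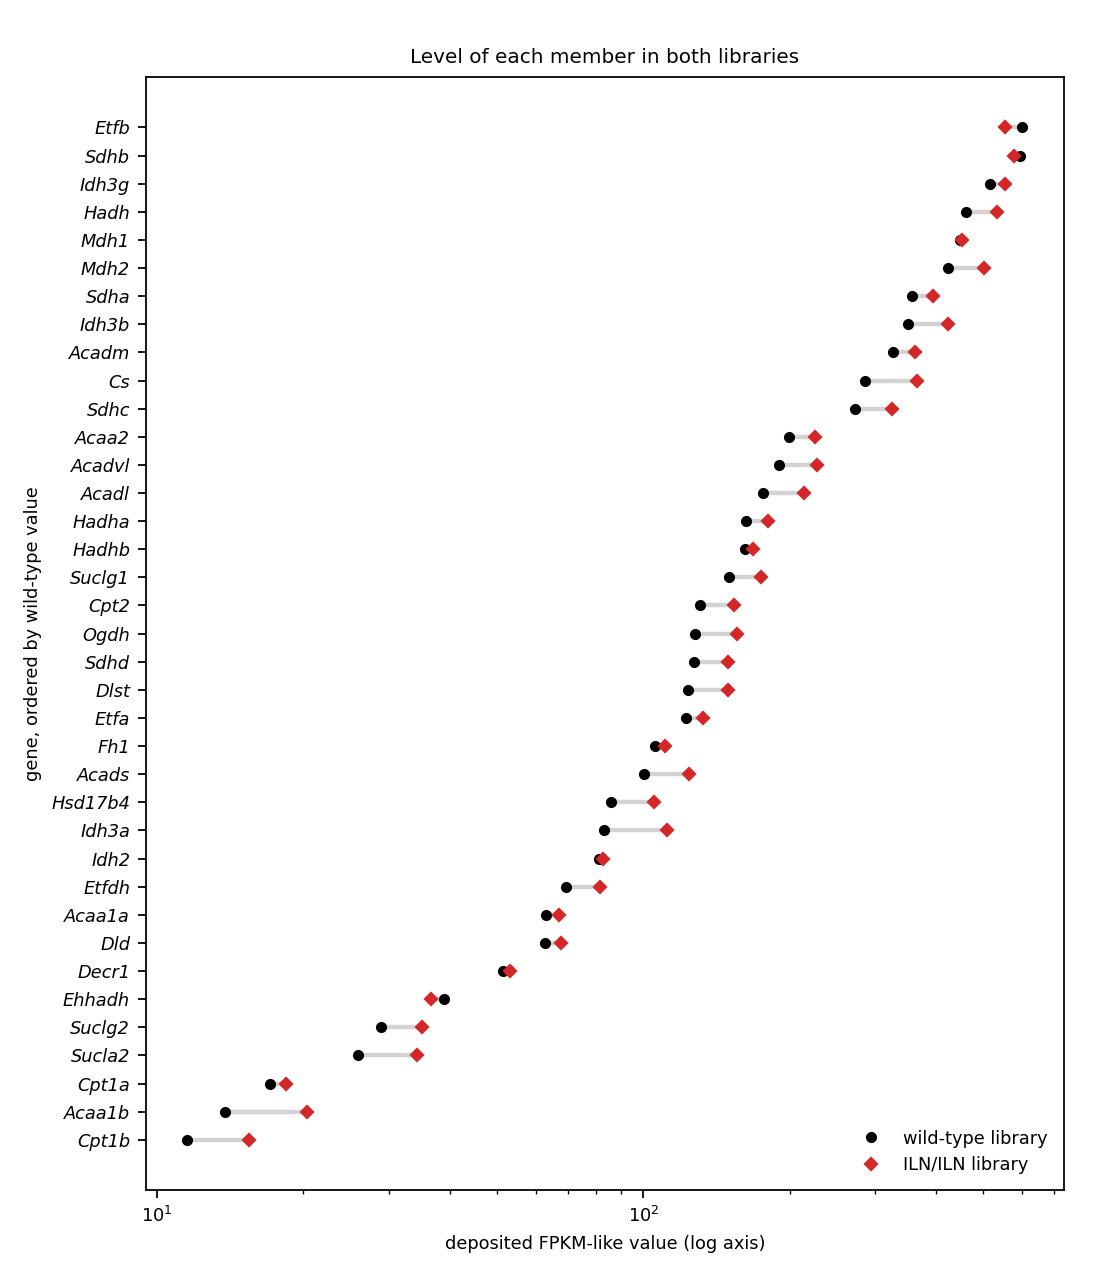
Deposited FPKM-like value of each member on a log axis, with the wild-type library as black circles and the ILN/ILN library as red diamonds, 1 library each. Values run from 11.5 for Cpt1b to 601 for Etfb in the wild-type library, and the red marker lies to the right of the black one for all genes but Etfb, Sdhb and Ehhadh.

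The carnitine shuttle genes were all higher in the ILN/ILN library. Cpt1a encodes the liver-type carnitine palmitoyltransferase 1 of the outer mitochondrial membrane, the step that malonyl-CoA inhibits. It was at 17.1 in wild type and 18.4 in ILN/ILN, a ratio of 1.08 (1.03 to 1.13). Cpt2, which makes acyl-CoA again on the inner membrane, was at 131 and 154, a ratio of 1.18 (1.15 to 1.20). Cpt1b, the muscle-type isoform that is also found in brown and white fat, was at 11.5 and 15.5. Its 125 and 156 fragments were the fewest of any member, and the ratio of 1.34 had the widest interval (1.05 to 1.71). The deposited length of Cpt1b was 223 bases, 7.70% of the 2895 bases of its longest coding transcript in the GRCm38 annotation, where a second gene model, Gm44502, overlaps it on the same strand. The value of Cpt1b therefore rested on a small piece of its message.

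The acyl-CoA dehydrogenases, which take the first electrons from fatty acids of decreasing chain length, differed within a narrow band. Acadvl, for very long chains, was at 190.0 in wild type and 228 in ILN/ILN (1.20; 1.17 to 1.22). Acadl, for long chains, was at 176 and 214 (1.22; 1.19 to 1.24). Acadm, for medium chains, was the most abundant of the 4 at 326 and 362 and had the lowest ratio (1.11; 1.09 to 1.13). Acads, for short chains, was at 100.2 and 124 (1.24; 1.20 to 1.28). All 4 were higher in the ILN/ILN library, and the interval of Acadm lay below those of the other 3.

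The later steps of the mitochondrial spiral were closer to 1. Hadh, the short-chain hydroxyacyl-CoA dehydrogenase, was the most abundant oxidation gene after Etfb, at 460.1 and 533 (1.16; 1.14 to 1.18). Acaa2, the mitochondrial 3-ketoacyl-CoA thiolase, was at 199 and 225 (1.13; 1.11 to 1.16). Decr1, a reductase needed for polyunsaturated chains, was at 51.5 and 53.2 with an interval that reached below 1 (1.03; 0.999 to 1.07). Hadha and Hadhb encode the alpha and beta subunits of the mitochondrial trifunctional protein, which carries out the last 3 steps on long chains. Their levels were nearly equal in the wild-type library, at 163 for Hadha and 162 for Hadhb. In the ILN/ILN library Hadha was at 181 and Hadhb at 168, so the ratios were 1.11 (1.09 to 1.13) and 1.04 (1.01 to 1.06), with intervals that did not overlap.

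Hadha and Hadhb are a head-to-head pair, and the Hadha start region is shown because it overlaps that of Hadhb. In the RefSeq annotation of GRCm38.p6 their start sites are 273 bases apart on opposite strands, so the printed window does not reach the Hadhb start. The window from 250 bases before to 50 bases after the Hadha start, chr5:30154931-30155230 on the minus strand, is printed 5′ to 3′ with capitals for the 228 bases that also lie in the corresponding window of Hadhb.
Hadha: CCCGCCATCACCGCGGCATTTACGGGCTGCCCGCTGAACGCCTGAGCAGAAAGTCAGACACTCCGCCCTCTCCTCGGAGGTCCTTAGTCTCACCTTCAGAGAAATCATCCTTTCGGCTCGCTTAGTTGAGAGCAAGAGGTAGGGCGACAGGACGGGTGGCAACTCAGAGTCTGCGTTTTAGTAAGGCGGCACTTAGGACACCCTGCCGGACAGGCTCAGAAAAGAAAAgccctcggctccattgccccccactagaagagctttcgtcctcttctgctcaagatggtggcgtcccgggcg
The subunits of 1 complex, whose start windows overlap, were at nearly the same level in the wild-type library and 1.04 to 1.11 times that level in the ILN/ILN library.

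The peroxisomal genes were the most mixed group. Ehhadh, the peroxisomal bifunctional enzyme, was at 38.9 in wild type and 36.6 in ILN/ILN and was 1.06-fold lower (1.02 to 1.10). Hsd17b4, the bifunctional enzyme that also handles branched chains, was at 85.9 and 105.0 (1.22; 1.19 to 1.254). Acaa1a and Acaa1b encode the peroxisomal 3-ketoacyl-CoA thiolases A and B. Acaa1a was at 63.1 and 66.9 with 3747 and 3702 fragments (1.06; 1.01 to 1.11). Acaa1b was lower in level, at 13.8 and 20.3, with 760 and 1042 fragments, and had the highest ratio of all members (1.47; 1.34 to 1.62). The intervals of the pair did not overlap.

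The thiolase pair is closely similar in sequence, which limits how their reads can be assigned. Of 1654 distinct stretches of 36 bases in the coding transcripts of Acaa1b, 704 (42.6%) were also in those of Acaa1a, which is 32.6% of the stretches of Acaa1a. Their deposited lengths of 1224 and 1135 bases were 69.5% and 67.2% of their longest coding transcripts in the GRCm38 annotation. In that annotation Acaa1a overlaps Myd88 and Acaa1b overlaps Dlec1 on the opposite strand. Use of strand by the counting program was not given in the sources used here. Myd88 was at 24.9 and 20.5 and was 1.22-fold lower in ILN/ILN (1.14 to 1.30). Dlec1, at 0.341 and 0.29, was below the minimum in both libraries, and its interval included 1 (0.849; 0.609 to 1.18). Among the other members Acadvl, Etfdh, Hadha, Idh3b and Mdh1 also share exon bases with a gene on the opposite strand, and Etfb does with the gene models Gm45233 and Mir7051 on its own strand.

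The start regions of the thiolase pair are shown for their difference in CG dinucleotides and GC content. Both windows lie on chromosome 9 of GRCm38.p6, chr9:119341044-119341343 on the plus strand for Acaa1a and chr9:119157044-119157343 on the minus strand for Acaa1b. Capitals mark CG dinucleotides.
Acaa1a: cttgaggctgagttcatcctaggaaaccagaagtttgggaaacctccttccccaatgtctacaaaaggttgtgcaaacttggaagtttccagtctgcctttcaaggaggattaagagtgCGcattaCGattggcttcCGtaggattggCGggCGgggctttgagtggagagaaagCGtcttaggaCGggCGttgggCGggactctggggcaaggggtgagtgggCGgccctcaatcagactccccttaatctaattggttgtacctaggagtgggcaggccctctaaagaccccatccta
Acaa1b: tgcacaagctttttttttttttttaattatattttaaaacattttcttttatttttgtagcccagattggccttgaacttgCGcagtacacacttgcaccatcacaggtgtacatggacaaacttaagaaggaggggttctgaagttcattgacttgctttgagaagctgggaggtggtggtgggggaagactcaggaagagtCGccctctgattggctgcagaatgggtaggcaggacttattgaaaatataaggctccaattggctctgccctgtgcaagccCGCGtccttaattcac
The Acaa1a window holds 10 CG dinucleotides and has a GC content of 53.3%, and the Acaa1b window holds 4 and has 43.7%. The median over the windows of the 31 members in the table was 18 CG dinucleotides and 60.3% GC, against 7 and 52.7% over 27025 genes, with the first window of each gene counted.

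The electron transfer flavoprotein carries electrons from the dehydrogenases to the respiratory chain. Etfa, its alpha subunit, was at 122 in wild type and 132 in ILN/ILN (1.08; 1.05 to 1.11). Etfb, its beta subunit, was at 601 and 553 and was 1.09-fold lower (1.07 to 1.11), the lowest ratio of all members. Etfdh, the membrane oxidoreductase that passes the electrons to ubiquinone, was at 69.2 and 81.5 (1.18; 1.14 to 1.22). The 3 ratios had intervals that did not overlap. Etfb held 601 of the group's summed wild-type value of 793, and the sum was 3.24% lower in ILN/ILN although 2 of the 3 genes were higher.

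**Figure D3:**
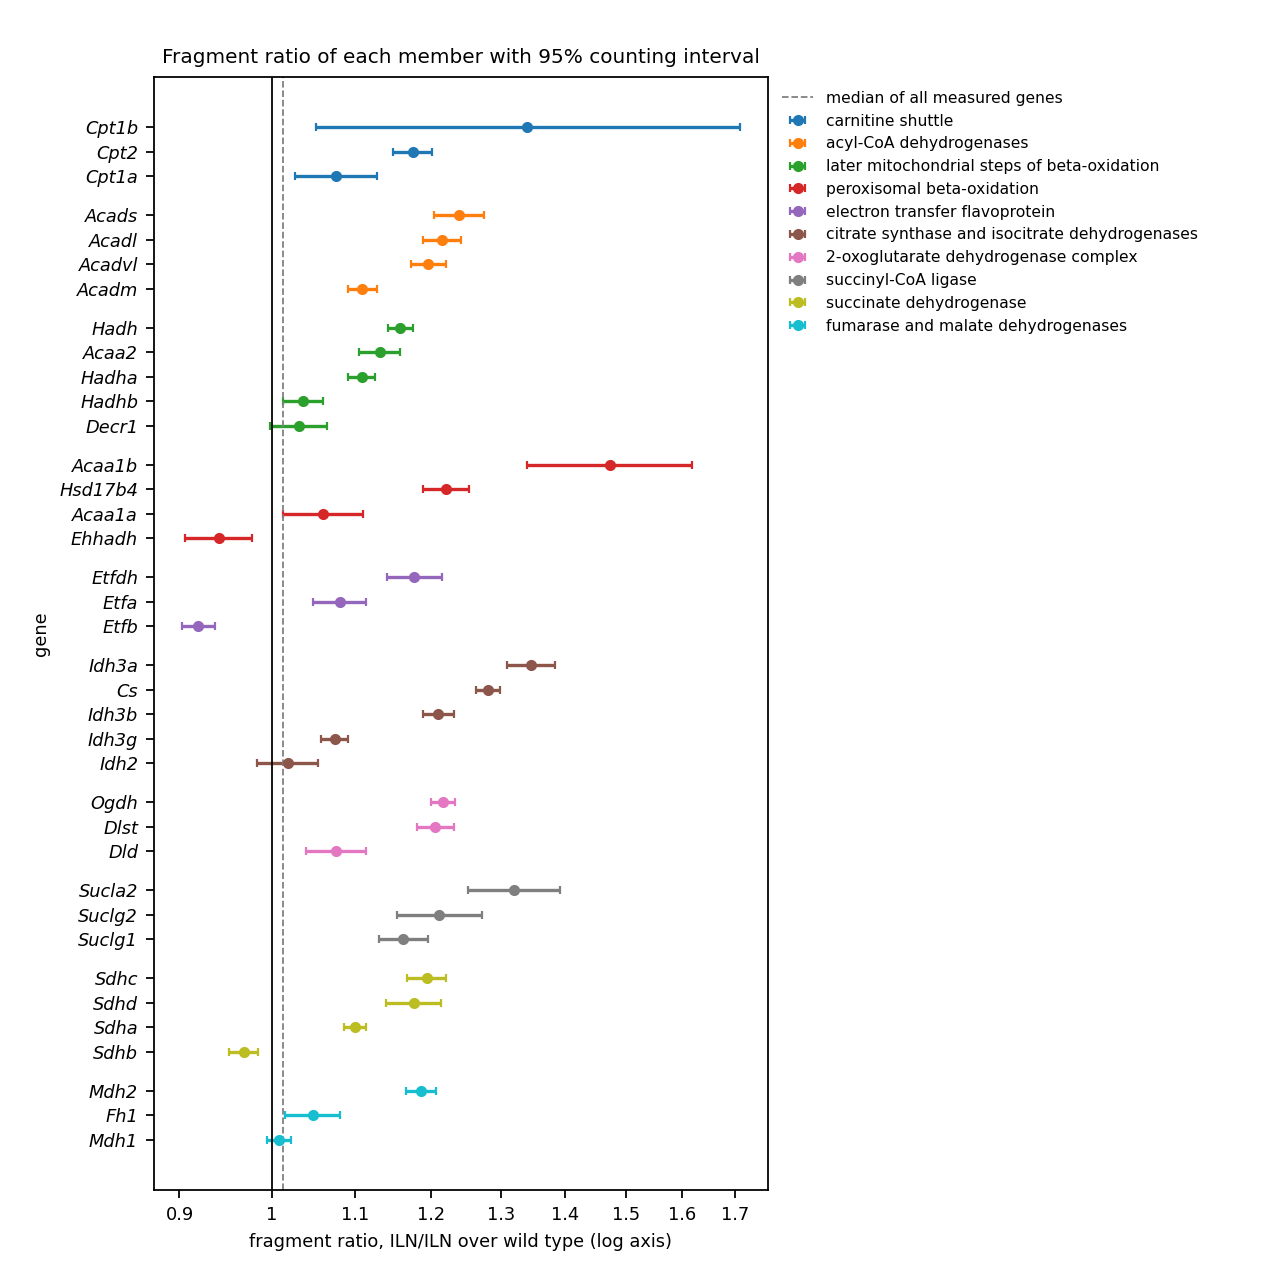
Fragment ratio of each member, ILN/ILN over wild type, on a log axis with 95% counting intervals as bars, grouped by role and coloured by group, with the median of all measured genes as a dashed line. The points run from 0.920 for Etfb to 1.47 for Acaa1b, and Etfb, Ehhadh and Sdhb alone have intervals wholly below 1.

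At the entry of the TCA cycle the ratios of Cs and Idh3a were among the highest of the members, and those of Idh3g and Idh2 were among the lower ones. Cs, citrate synthase, was at 285 in wild type and 366 in ILN/ILN, from 37827 and 45134 fragments (1.28; 1.26 to 1.30). The NAD-dependent isocitrate dehydrogenase is built from 3 kinds of subunit. Its catalytic alpha subunit Idh3a was at 82.9 and 112 (1.35; 1.31 to 1.38). The beta subunit Idh3b was at 349 and 423 (1.21; 1.19 to 1.23), and the gamma subunit Idh3g at 515 and 554 (1.07; 1.06 to 1.09). The subunit with the least message had the highest ratio and the one with the most message the lowest, with intervals that did not overlap. Idh2, the NADP-dependent mitochondrial enzyme, was at 81.1 and 82.7 with an interval that included 1 (1.02; 0.984 to 1.06).

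The 2-oxoglutarate dehydrogenase complex was higher in all of its parts. Ogdh, the E1 subunit that sets the pace of the complex, was at 128 and 155, and with 39950 and 45256 fragments it was among the most deeply counted members (1.22; 1.20 to 1.23). The deposited length of Ogdh, 6446 bases, was above the 4127 bases of its longest coding transcript in the GRCm38 annotation, which bears on its level per length. Dlst, the E2 subunit, was at 124 and 149 (1.21; 1.18 to 1.23). Dld, the E3 subunit that is shared with pyruvate dehydrogenase and other complexes, was at 62.9 and 67.7 (1.08; 1.04 to 1.11), below the intervals of Ogdh and Dlst.

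Succinyl-CoA ligase pairs a common alpha subunit with 1 of 2 beta subunits, and all 3 genes were higher. The alpha subunit gene Suclg1 was at 150.0 in wild type and 175 in ILN/ILN (1.16; 1.13 to 1.20). Sucla2, the ADP-forming beta subunit, was at 25.9 and 34.2 (1.32; 1.252 to 1.39). Suclg2, the GDP-forming beta subunit, was at 28.9 and 35.1 (1.21; 1.15 to 1.27). The beta subunits together had a lower value than the alpha subunit in each library.

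Succinate dehydrogenase, which is also complex II of the respiratory chain, did not differ as a unit. Sdha, the flavoprotein subunit, was at 357 and 393, with the most fragments of any member, 48317 and 49510 (1.10; 1.09 to 1.11). Sdhb, the iron-sulfur subunit, was at 595 and 577 and was 1.03-fold lower (1.02 to 1.05). The membrane anchors were higher, with Sdhc at 272 and 325 (1.19; 1.17 to 1.22) and Sdhd at 127 and 149 (1.18; 1.14 to 1.21). The deposited length of Sdhc, 1105 bases, was 34.8% of its longest coding transcript in the GRCm38 annotation. Among the 4 subunits the ratio of the anchors lay above that of Sdha, and Sdha above Sdhb, with no overlap between these 3 levels.

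In the last steps of the cycle Fh1 and Mdh1 had ratios near 1 and Mdh2 did not. Fh1, fumarase, was at 106 and 111 (1.05; 1.02 to 1.08). Mdh1, the cytosolic malate dehydrogenase, was at 447 and 451 with an interval that included 1 (1.01; 0.994 to 1.02), and its log2 ratio was below 0 with libraries scaled by the median or the upper quartile of genes. Mdh2, the mitochondrial enzyme that closes the cycle, was at 423 and 503 (1.19; 1.17 to 1.21). The mitochondrial and the cytosolic malate dehydrogenase thus differed in ratio although their levels were close.

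The start regions of the members were searched for letters that nuclear receptors and mitochondrial regulators are known to bind. RefSeq windows of 300 bases were matched by symbol for 31 of the 37 members (not for Idh3a, Acaa2, Hsd17b4, Decr1, Sdhc and Cpt1b) and compared with 27025 genes, both strands being searched. TCAAGGTCA, the element of the estrogen-related receptors, was in 1 member, Sdhd, and in 0.466% of all genes. The element of the PPAR receptors, AGGTCA repeated with 1 base of any kind between, was in 0 members and in 0.0481% of genes. Only 13 of the 27025 genes held these exact letters, so a count of 0 in 31 members cannot show that members lack such elements. The NRF1 motif, GCGCA and GCGC with 1 base of any kind between, was in 6 members (19.4%) and in 5.19% of genes, and those members were Etfb, Etfdh, Dld, Sucla2, Sdha and Sdhd. CCGGAAGTG, bound by GABP, was in Cpt2 and Dlst and in 2.25% of genes, and TATAAA, the TATA box, was in 0 members and in 15.7% of genes. These shares were not matched for base composition, and the windows of the members were richer in GC (median 60.3% against 52.7%). The members with the NRF1 letters had ratios from 0.920 for Etfb to 1.32 for Sucla2.

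Sdhd was the member with both the estrogen-related receptor letters and the NRF1 letters. Its window is chr9:50603800-50604099 of GRCm38.p6 on the minus strand, with capitals for the match to TCAAGGTCA, which is on the other strand.
Sdhd: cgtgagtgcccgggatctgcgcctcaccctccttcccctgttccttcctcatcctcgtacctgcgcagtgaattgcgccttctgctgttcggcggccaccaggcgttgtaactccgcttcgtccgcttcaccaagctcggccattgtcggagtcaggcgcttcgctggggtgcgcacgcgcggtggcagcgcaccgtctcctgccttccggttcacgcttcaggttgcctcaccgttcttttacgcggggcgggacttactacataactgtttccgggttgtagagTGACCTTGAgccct
A match to these letters is a description of the sequence and was not tied to binding in this tissue.

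Other genes of the same routes were followed in 7 lists that leave out the members, 104 measured genes in all. Their median log2 ratio was 0.14, with 72 above 0 and 32 below. On the scale of value plus 1, 5 of these were at least 1.5-fold higher and 1 was lower by as much, against 1.9% and 5.39% of all measured genes. Among them Ppargc1a (higher) and Pdp1 (lower) had values that were not made from fragments in both libraries. Without the added 1, Acot1 and Nrip1 (higher) and Bdh2 (lower) also passed 1.5-fold. Of 27 other oxidation enzymes 25 were above 0 (median 0.17), and none was past 1.5-fold. Phyh, which starts the oxidation of phytanic acid in peroxisomes, was at 105 in wild type and 156 in ILN/ILN (1.49; 1.44 to 1.54). Slc25a20, the carnitine-acylcarnitine translocase that sits between Cpt1a and Cpt2, was at 89.0 and 111 (1.24; 1.20 to 1.28). Abcd3, a peroxisomal acyl-CoA transporter, was at 11.8 and 15.0 (1.27; 1.20 to 1.35). The ratio of Phyh was above that of every member, but its interval lay within that of Acaa1b (1.34 to 1.62). The ratios of Slc25a20 and Abcd3 lay within the members' range.

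The other TCA cycle and pyruvate entry genes had a median of 0.14, with 18 of 27 above 0. Pdpr was at 9.55 and 11.8 (1.24; 1.15 to 1.34) and Pdk2, a kinase that inhibits pyruvate dehydrogenase, at 140.2 and 169 (1.21). Pdp1, the phosphatase that reactivates pyruvate dehydrogenase, was the 1 gene of this list at least 1.5-fold lower on value plus 1. Its deposited values were 4.93 and 2.49. These values were not both made from its fragments, which were 311 and 395 and gave a ratio of 1.36 (1.17 to 1.59), in the opposite direction.

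Fatty acid activation differed from gene to gene. Acsl1, the main acyl-CoA synthetase of adipocytes, was at 688 in wild type and 1045 in ILN/ILN (1.52; 1.51 to 1.53), higher in level than any member. Acss1, a mitochondrial acetyl-CoA synthetase, was at 7.72 and 5.43 and 1.42-fold lower (1.30 to 1.55). Acsl3 and Acsl4 had lower deposited values, at 4.24 and 3.05 and at 10.6 and 8.22, but these were not made from fragments. The median of the 9 measured genes was -0.02. Of 9 genes for malonyl-CoA and AMPK 6 were above 0 (median 0.11), and the AMPK subunit genes Prkab2 (2.64 and 3.66) and Prkab1 (14.9 and 12.3) lay at its ends. Of 4 measured ketone body genes 3 were below 0 (median -0.21), with Bdh2 at 5.96 and 3.89, Aacs at 179 and 152 and Oxct1 at 72.7 and 63.6.

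Regulators of oxidative genes showed no common direction, with 9 of 17 above 0 and a median of 0.01. Ppara, the nuclear receptor that switches on many oxidation genes, was at 7.26 and 10.6 (1.46; 1.38 to 1.54). Nrip1, a corepressor of such genes, was at 13.8 and 20.9 (1.52; 1.45 to 1.59). Ppargc1a, a coactivator of mitochondrial genes, had 156 and 243 fragments (1.67; 1.36 to 2.06), and its deposited values of 0.509 and 2.12 were not made from fragments in both libraries. Sirt1, a deacetylase, had deposited values of 3.16 and 4.57 but 212 and 167 fragments (0.846; 0.687 to 1.04).

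Known PPAR target genes outside the members had the highest median of the 7 lists, 0.50 over 11 measured genes. Of these 9 were above 0, against 52.3% of all measured genes. On value plus 1, 3 were at least 1.5-fold higher, against 1.9%, and Acot1 fell just short at a log2 ratio of 0.57. Fabp3, a fatty acid binding protein of oxidative tissue, was at 11.0 and 20.0 (1.82; 1.58 to 2.09). Pdk4, the kinase that turns pyruvate dehydrogenase off when fat is burned, was at 33.8 and 51.4 (1.52; 1.47 to 1.57). Acot4 was at 1.41 and 2.93 (2.08; 1.699 to 2.56) and Acot1 at 1.39 and 2.55 (1.83; 1.32 to 2.55), acyl-CoA thioesterases with close paralogs between which reads could be split. The median of this list depended on how low genes were treated. It was 0.44 with a minimum of 5 (9 genes), 0.31 with a pseudocount of 5 and 0.21 with no minimum. The setting with no minimum adds genes below 1 in both libraries, and 2 of those had 0 fragments in both, which fixes their log2 ratio at 0. In that setting the list median was close to the members' median of 0.22. Of the 11 measured genes 2, Ucp2 and Plin5, named after their values were seen, were below 0 (-0.22 and -0.10). The 15 genes of this list were chosen with earlier results of these data known, and their median does not stand for all PPAR targets.

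**Figure D4:**
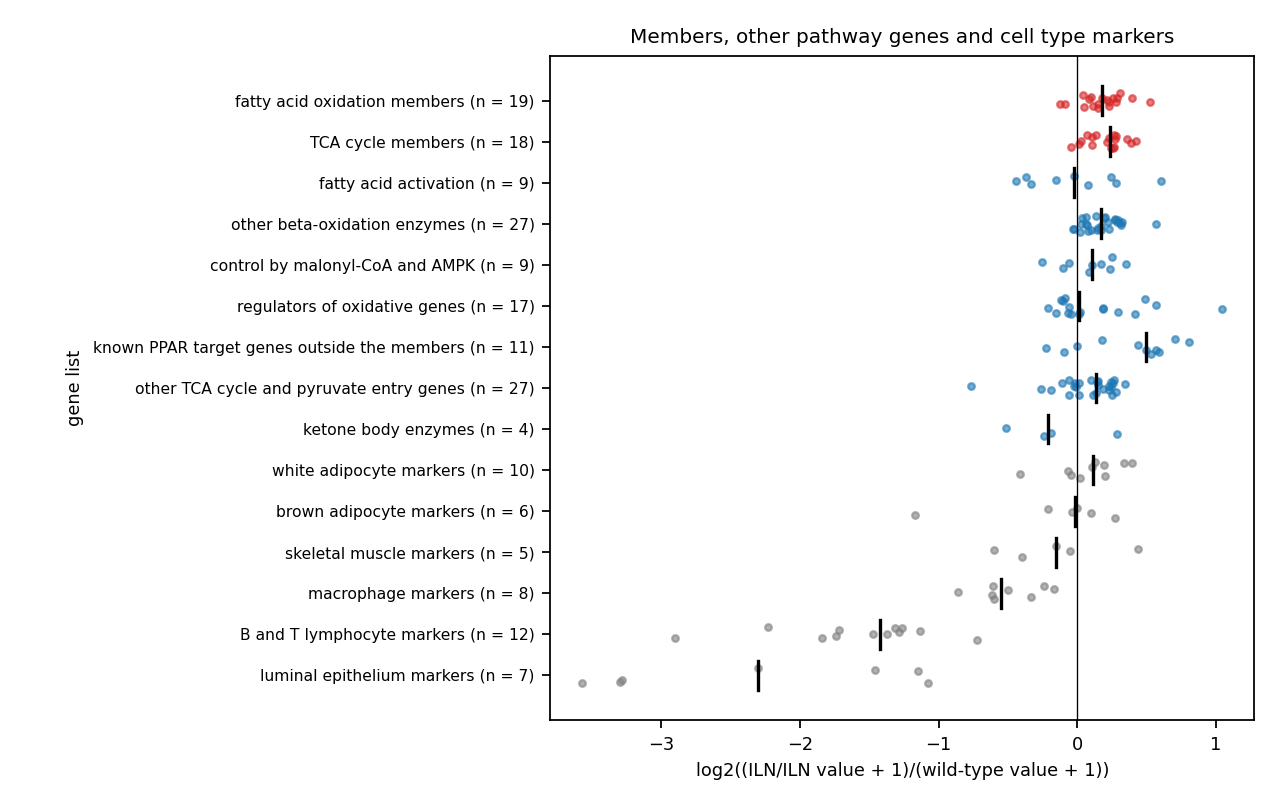
Each point is the log2 ratio of (value + 1) of 1 measured gene, ILN/ILN over wild type, for the members (red), other pathway genes (blue) and cell type markers (grey), with list medians as black bars and vertical scatter added for display. The members cluster near their medians of 0.18 and 0.24, the PPAR target list has a median of 0.50, and the lymphocyte and luminal epithelial markers lie far to the left.

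Gene length moved with the ratio in these libraries, so the members were set beside genes of like length. The median log2 ratio of measured genes was -0.09 under 1 kb, -0.02 from 1 to 2 kb, 0.02 from 2 to 3 kb, 0.05 from 3 to 5 kb and 0.08 over 5 kb. The 19 members of 1 to 2 kb had a median of 0.18 and the 13 members of 2 to 3 kb one of 0.26. Of 37 members 34 were above the median of their own length class, and the members' median relative to it was 0.21. Both Etfb and Sdhb, with ratios below 1, were short, at 761 and 1017 bases, and Ehhadh, also below 1, was not, at 2936. Across the 37 members the Spearman correlation of log2 ratio with length was 0.06 and that with wild-type value was -0.25, both within the same 2 libraries and given as descriptions.

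**Figure D5:**
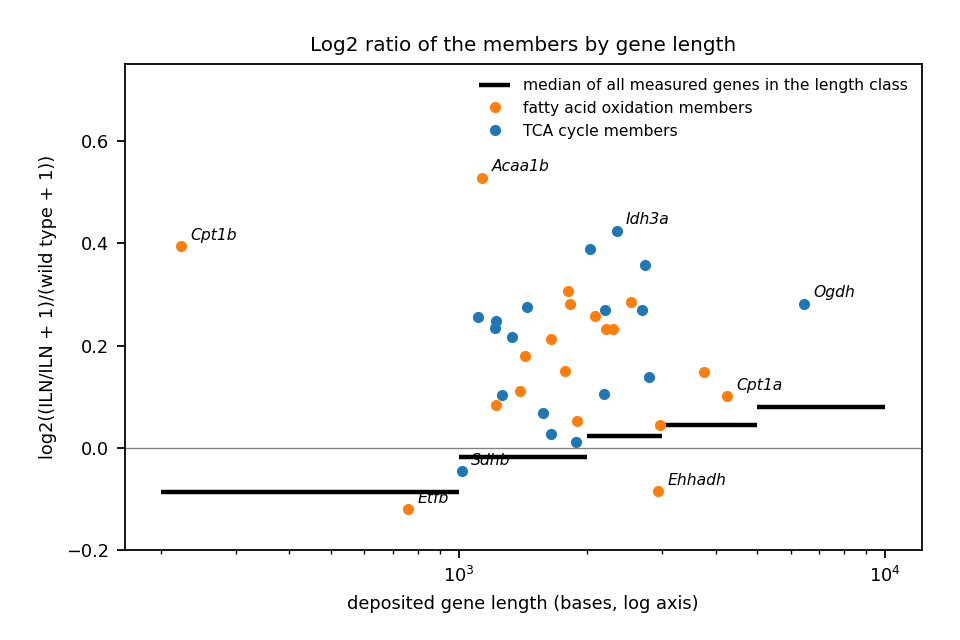
Log2 ratio of (value + 1) of each member, ILN/ILN over wild type, against its deposited length on a log axis, with oxidation genes in orange, TCA cycle genes in blue and black bars for the median of all measured genes in each length class. The black bars climb from -0.09 to 0.08 with length, and 34 of 37 members lie above the bar of their class.

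The level of adipocyte messages bears on the same sign. The 10 white adipocyte markers had a median log2 ratio of 0.12, and 24 of 37 members lay above it, with a median of 0.10 relative to it. Among the markers Plin1, a lipid droplet coat gene, was at 421 and 556 and Adipoq, the adiponectin gene, at 3534 and 3580, while Cfd, the adipsin gene, was at 33952 and 25466. The markers spread more widely than the members, from -0.41 to 0.40. The part of adipocyte RNA in the members' values was not tested.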

How the data were processed

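Polyadenylated RNA was copied with dUTP second-strand marking and sequenced on 2 lanes per sample, per the labels' protocols. Per the submitters' processing notes, mm9, bedtools, TopHat 1.4.1 and Bowtie 0.12.3 were used, with no role given. The program behind the tables, its annotation, filters and use of strand were not given in the sources used here. Per the file headers the authors deposited an FPKM-like value, its log2(value + 1), a signal per kilobase before library scaling, and a length. Per gene the signal is the higher one of its original and derived estimates. Original signal times length gave whole numbers (within 0.01), called fragments here, 46133338 in wild type and 42953129 in ILN/ILN.

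Ratios, exact conditional intervals and medians were computed with numpy 2.4.6, pandas 2.3.3 and scipy 1.17.1. The intervals were tried on simulated counts that held counting error alone, so that trial does not bear on spread between libraries. Genes reaching a value of 1 in at least 1 library were counted. Members and lists were chosen with earlier results of these data known. All members could be named, and from each other list up to 4 measured genes with the largest absolute log2 ratio. Older symbols (Dci, Peci, Brp44, Brp44l) stood for newer ones. Sequences are RefSeq windows on GRCm38.p6, and no coordinates were converted. Alternatives covered pseudocount, scaling, estimate, minimum and fold threshold. Relative values against length classes and adipocyte markers were added after the data were seen. Reads without molecular identifiers are not independent molecules, so intervals cover counting error only. The named markers of each other cell type were taken by the same rule or for being at 0, and Adipoq was named outside it. A few genes covered by this rule are not reported here.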

Additional observations from a re-analysis of the deposited data

How the results depend on the processing

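Every alternative of pseudocount, scaling, estimate and minimum kept the members' median log2 ratio above 0, between 0.20 and 0.22, and the medians of the oxidation genes (0.16 to 0.18) and of the TCA cycle genes (0.22 to 0.24) were also above 0 in each. The count of members at least 1.5-fold higher was 0 in all of these settings, and at a threshold of 25% higher it was 5, since a lower threshold admits more genes. Relative to white adipocyte markers, a setting chosen after seeing the data, the members' median was 0.10 in place of 0.22, which follows from subtracting the markers' median. Of 185 values for single members under alternatives 182 stayed within the counting interval of the gene. Mdh1, whose interval includes a ratio of 1, went from 0.01 to -0.01 with the median of gene ratios and to -0.0024 with the upper quartile. The 3 outside it were Cs, Ogdh and Sdha with scaling by the median of gene ratios, at 0.34, 0.26 and 0.12. No scaling moved the median of all measured genes by more than 0.02. No paired analysis was possible because each genotype had 1 library, and for the same reason no library could be left out.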
